A study of Mus musculus with 6 samples.

Results

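Small nucleolar RNAs (snoRNAs) and the genes that carry them were followed through the first cell division of the mouse embryo. The members were all names that begin with Snora, Snord, Scarna, Snhg or Rnu, plus Gas5, in a table of total and newly made RNA. They came to 129 of the 23259 gene names in the table: 36 Snora, 69 Snord, 9 Scarna, 12 Snhg names including Gas5, and 3 Rnu. Of these, 72 had at least 1 read in some column and 57 had none.

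The study had 6 samples in 3 groups of 2: zygotes from WT mice, zygotes labelled as Pabpn1l-null, and 2-cell embryos from WT mice. Pabpn1l is an oocyte poly(A)-binding protein that takes part in the clearance of maternal mRNA. Each sample held 50 embryos, kept for 2 h in medium with 200 μM 4-thiouridine (S4U), a uridine analogue taken up into RNA made during that time. After alkylation it is read as C in place of T, so T-to-C reads are taken here as a sign of RNA made in the labelling window. All 6 samples had S4U, so T-to-C reads that arise without it were not measured. The protocol text is the same for every sample and speaks only of zygotes taken 26 h after injection of human chorionic gonadotropin (hCG), a hormone that triggers ovulation. The sources used here do not state when 2-cell embryos were taken, the mouse strain, the nature of the Pabpn1l allele or how many mothers were pooled. The table gives 1 pair of columns per group, total and T-to-C reads, and not 1 pair per sample. No spread between replicates can therefore be computed, and each test below compares the libraries of a column, not the conditions.

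SnoRNAs guide chemical changes of other RNAs. Box C/D snoRNAs (Snord) guide methylation of ribose, and box H/ACA snoRNAs (Snora) guide the change of uridine to pseudouridine, mostly in ribosomal RNA in the nucleolus. Small Cajal body RNAs (Scarna) do the same for the small nuclear RNAs of the spliceosome, and Rnu11 and Rnu12 are the U11 and U12 small nuclear RNAs of the minor spliceosome. Most mammalian snoRNAs are cut out of introns of a host gene, often a gene for a ribosomal or nucleolar protein. The Snhg genes and Gas5 are hosts whose spliced product is a long non-coding RNA, and several of those products are removed by nonsense-mediated decay. Host genes of snoRNAs often start transcription at a C within a run of pyrimidines, the 5′ terminal oligopyrimidine start that ribosomal protein genes also use.

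RefSeq (GRCm38.p6) gave a place to 127 of the 129 members and a start-site sequence to 10 Snhg names, Gas5 among them. The 61 bases around the start, 30 on each side, are shown for the 4 Snhg genes with enough reads to test and for Gas5, since this is where host genes share a sequence feature. Capitals mark a run of at least 5 pyrimidines, counted from a C that lies within 5 bases of the start, whatever base comes before that C.
Snhg1 (chr19:8723457-8723517, plus strand): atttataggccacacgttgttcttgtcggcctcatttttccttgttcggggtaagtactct
Snhg5 (chr9:88522867-88522927, minus strand): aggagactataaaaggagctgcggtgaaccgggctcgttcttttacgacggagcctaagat
Snhg8 (chr3:123508306-123508366, minus strand): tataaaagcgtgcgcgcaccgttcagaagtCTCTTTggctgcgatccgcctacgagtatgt
Snhg11 (chr2:158375683-158375743, plus strand): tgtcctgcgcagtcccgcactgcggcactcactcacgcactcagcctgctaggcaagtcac
Gas5 (chr1:161035136-161035196, plus strand): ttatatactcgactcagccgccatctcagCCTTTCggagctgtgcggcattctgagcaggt
Such a run, read on the gene's own strand, was found at 7 of the members' 11 starts (63.6%), Gas5 having 2 starts in RefSeq. At Snhg8, Snhg9, Snhg10 and Snhg12 a pyrimidine comes just before that C, so the run counted there is the end of a longer one. The same search found it at 18.3% of 32851 RefSeq starts, at 42.9% of 70 starts of cytosolic ribosomal protein genes and at 35.2% of 54 starts of the genes that hold a snoRNA. Snhg8 and the Gas5 start shown carry it, while the other Gas5 start does not. The stretches shown for Snhg1, Snhg5 and Snhg11 have no such run opening with C near the start. Pyrimidine runs that open with T occur in those of Snhg5 and Snhg1, for Snhg1 beginning within 5 bases of the start. The letters TATAAA stood within the 50 bases before the start, on the gene's strand, at 3 of the 11 starts (27.3%, Snhg5, Snhg7 and Snhg8). They stood there at 2.63% of all starts, at 9.26% of the 54 starts of genes that hold a snoRNA and at 0% of the 70 ribosomal protein gene starts.

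The WT zygote column held 3001472 total reads, the Pabpn1l-null zygote column 1270347 and the WT 2-cell column 4020444, of which 3.03%, 3.86% and 4.54% were T-to-C reads. A count of 0 allows up to 3 molecules, taken here as 21 reads, or 7.08, 15.7 and 5.44 RPM (reads scaled to libraries of equal size) in that order. In the null column, reads were clumped. Among 1295 names expected there at 3 to 5 reads from their WT zygote level, 58.3% had none, against 2.27% if reads were independent. If clumping made all of this excess, it corresponds to 7.36 reads per original molecule. Counting error in the WT zygote column and true differences between the columns would also enter that figure. All 8 members with reads in that column had 5 to 10, and none had 1 to 4, while over all names 829 had 1 to 4 reads there and 1068 had 5 to 8. In the WT zygote column 22 of 32 detected members had 1 to 4 reads, and in the 2-cell column 17 of 63 did. Tests and intervals below count 7 reads as 1 molecule in every column, a cautious setting for the WT columns. Marker genes of the egg were lower at the 2-cell stage for 7 of 11 tested and higher for none, and 10 of 10 tested markers of the 2-cell stage were higher, 9 of which reached the minimum for a test only through the 2-cell column and could hardly have been lower. Summed cumulus cell markers had 290, 83 and 376 reads in the WT zygote, null and 2-cell columns, the order used for every such triple below, with 8 of 15 detected. Sperm markers had 447, 274 and 1751 reads, nearly all from Odf2. Of the 11 sperm markers, 6 had a read, 5 of these under 20 in all, and 5 had none, Prm1 and Tnp2 among them. The part of other cells in the members' reads was not tested. Pabpn1l itself had 47, 4 and 14 reads.

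The first comparison, WT 2-cell embryos against WT zygotes, sets embryos before and after the first division side by side. Over the 129 members, reads summed to 171 for WT zygotes, 58 for null zygotes and 1598 for 2-cell embryos, or 57.7, 43.3 and 414 RPM. The 2-cell sum was 7.18 times the WT zygote sum (95% exact interval 4.72 to 11.4, counting error only). Without Scarna6, the member with the most reads, the ratio was 6.62 (4.22 to 10.9). The sum over all names differed by a factor of 1.03, which follows from the scaling of the columns and is no background. In these bulk samples, a larger share of the library and a larger amount of RNA per embryo cannot be told apart. Names that begin with Mir, another class of small RNA genes, gave a summed ratio of 2.67 (2.20 to 3.26) over 611 names, below the interval of the snoRNA set; that difference was not tested further.

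**Figure D1:**
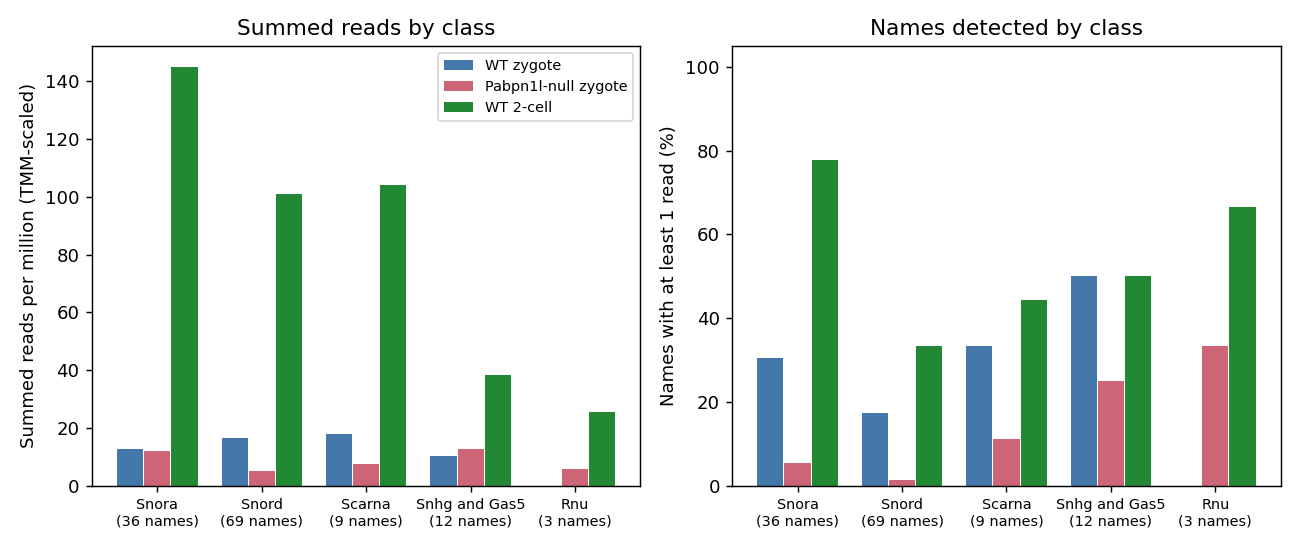
Left, summed total reads in RPM (scaled with TMM factors) for the 5 classes of members in the 3 columns; right, the percentage of names in each class with at least 1 read. Each bar is 1 column, with no replicate error; the 2-cell bar is the tallest of the 3 in every class on the left, and on the right it is level with the WT zygote bar for Snhg and Gas5.

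Most detected members of each class lay higher at the 2-cell stage. Of the 72 members with a read, 60 (83.3%) had a higher scaled value in 2-cell embryos than in WT zygotes, and 11 a lower one, against 49.7% higher among all names with a read. Scaling by column totals put Snora at 26 higher in place of 27 and left the other class counts as they were. Box H/ACA snoRNAs were higher in 27 of 28 detected names, with 38, 16 and 559 summed reads and a ratio of 11.3 (4.80 to 33.8). Box C/D snoRNAs were higher in 22 of 31, with 49, 7 and 390 reads and a ratio of 6.12 (2.78 to 15.9). All 4 detected small Cajal body RNAs were higher, with 53, 10 and 402 reads and a ratio of 5.83 (2.72 to 14.5). The spliced hosts, Snhg names and Gas5, were higher in 5 of 7, with 31, 17 and 148 reads and a ratio of 3.67 (1.29 to 13.6). The intervals of the classes overlap, and the differences between them were not tested. Between the WT columns alone, 39 members were seen only at the 2-cell stage, 8 only in zygotes (7 Snord and 1 Snhg) and 24 in both. Over all names these counts were 1966, 2034 and 12122.

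Single members were tested where they had at least 20 reads over the 3 columns. That left 22 of 129, and 19 of these reached 20 only through the 2-cell column (86.4%, against 22.1% of the 11262 names tested). They could hardly be lower at the 2-cell stage, and their counts are given as a description. At an adjusted p under 0.05 and at least 2-fold, 4 of 22 were higher (18.2%) and 0 lower. Over all names tested, 16.3% were higher and 16% lower, so the members' share was near the background. The test was an exact conditional binomial test, two-sided, with Benjamini-Hochberg adjustment over all names tested. At an unadjusted p under 0.05 there were 7 members. Counting every read as 1 molecule called 20 of the 22 higher, with a background of 30.6%, and edgeR's exact test at an assumed variation of 0.4 called 16, with a background of 15.4%. Scaling by RLE factors called 7, with a background of 20.4%, adding Snora74a, Snora81 and Snhg8. The number of members called therefore depended on the clump size, and the 4 were called under every scaling, filter and test tried.

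**Figure D2:**
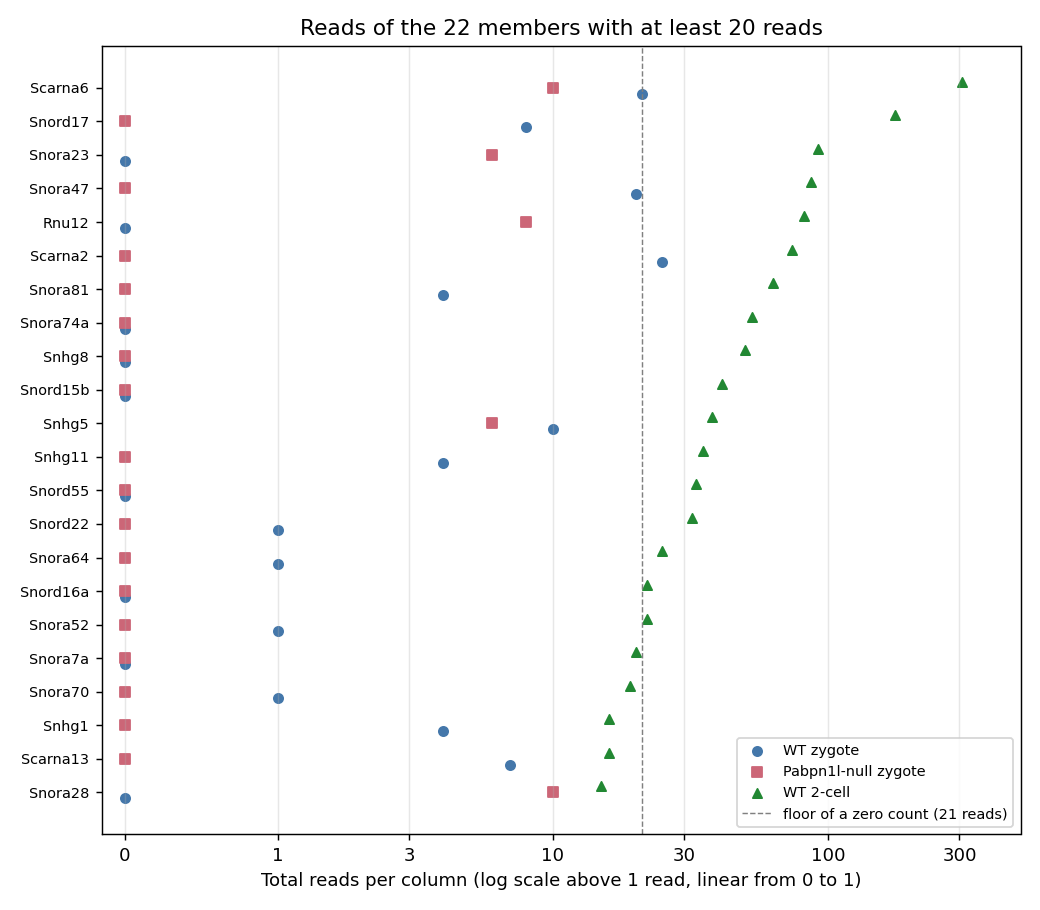
Total reads of the 22 tested members in the 3 columns, on an axis that is logarithmic above 1 read; the dashed line marks the 21 reads that a count of 0 allows. In reads not scaled for depth the 2-cell value is the highest of the 3 in 22 of 22, while in RPM Snora28 is higher in null zygotes (7.46) than in 2-cell embryos (3.89); all but 1 of the WT zygote values lie on or to the left of the line.

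Among the small Cajal body RNAs, Scarna6 (248 bases, chr1:87784571-87784818, inside Atg16l1) had 21 reads from WT zygotes, 10 from null zygotes and 307 from 2-cell embryos. The 2-cell library was 11.2 times higher (3.60 to 56.6), with an adjusted p of 3.04e-07 in the exact binomial test. Scarna2 (61 bases, chr3:108554342-108554402) lay in no other RefSeq gene and had 25, 0 and 74 reads. Its ratio of 2.28 (0.639 to 10.8) did not pass, with an adjusted p of 0.430 in that exact test. Scarna13, inside Snhg10, had 7, 0 and 16 reads. Scarna3a had 5 reads, all at the 2-cell stage, and the other 5 Scarna names (Scarna3b, Scarna8, Scarna9, Scarna10 and Scarna17) had none.

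Box C/D snoRNAs were spread between 1 abundant name and many near the limit. Snord17 (221 bases, chr2:144265982-144266202, inside Snx5) had 8, 0 and 175 reads, with only the 2-cell count above the floor. Its ratio was 16.8 (3.01 to 467), with an adjusted p of 1.05e-04 in the exact binomial test. Snord15b had 0, 0 and 41 reads, and the exact interval of its 2-cell to WT zygote ratio opened at 0.876. Snord55 had 0, 0 and 33, with an interval that opened at 0.648, and neither passed. Snord22 had 1, 0 and 32 reads and Snord16a had 0, 0 and 22, also without passing. A small set ran the other way with low counts. Snord42a had 13 reads in WT zygotes and 0 in both other columns, Snord4a had 9, 0 and 2, Snord52 had 5, 0 and 0, and Snord58b had 4, 0 and 0. None reached the 20 reads needed for a test. Snord42a and Snord4a lie in the same gene, Rpl23a, which itself had no read, and the third snoRNA of that gene, Snord42b, had 0, 0 and 9.

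Box H/ACA snoRNAs gave the largest number of tested names, 9 of 36. Snora23 (184 bases, chr7:110046364-110046547, inside Ipo7) had 0, 6 and 92 reads. The exact interval of its 2-cell to WT zygote ratio opened at 2.37, with an adjusted p of 0.00413 in the exact binomial test. Snora47 (126 bases, chr13:95330611-95330736, inside Zbed3) had 20, 0 and 87 reads, a ratio of 3.34 (0.891 to 19.4) that did not pass. Snora81, inside Eif4a2, had 4, 0 and 63 reads, with a ratio of 12.1, an interval that opens at 1.13 and an adjusted p of 0.0802 in the exact test. Snora74a had 0, 0 and 53 reads, with an interval that opens at 1.22 and an adjusted p of 0.0679 in the exact test. The 5 others had fewer reads: Snora64 had 1, 0 and 25, Snora52 1, 0 and 22, Snora7a 0, 0 and 20, Snora70 1, 0 and 19, and Snora28 0, 10 and 15. Snora28 was the only tested Snora with more reads in null than in WT zygotes besides Snora23, and its 2-cell count was under the floor.

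The spliced host RNAs and the minor spliceosomal RNAs had few reads. Snhg5 had 10, 6 and 38 reads, a ratio of 2.92 (0.419 to 54.7). Snhg8 had 0, 0 and 50, with an interval that opens at 1.14 and an adjusted p of 0.0834 in the exact binomial test. Snhg11 had 4, 0 and 35 and Snhg1 had 4, 0 and 16, and none of the 4 passed. Snhg10 went the other way, with 7, 6 and 2 reads, too few for a test. Gas5, Snhg6, Snhg7, Snhg9 and Snhg12 had no read in any column. U12, listed as Rnu12 (150 bases, chr15:83149645-83149794), had 0, 8 and 82 reads. It was higher in 2-cell embryos than in WT zygotes, with an interval that opens at 2.08 and an adjusted p of 0.00853 in the exact test. U11, listed as Rnu11, had 0, 0 and 17 reads, under the floor.

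The remaining 50 members with a read had 1 to 19 reads in all. The 5 with the most were Rnu11, Snora78 (0, 0 and 17), Snord37 (3, 0 and 13), Snora24 (0, 0 and 16) and Snora33 (1, 0 and 15). Detection went with length. The 115 members that RefSeq lists as small RNAs are 42 to 275 bases long, and the libraries were made from amplified cDNA of 300 to 400 bp. Median length was 131.5 bases for the 18 with at least 20 reads, 96 for the 47 with 1 to 19 and 68 for the 50 with none. Among box C/D snoRNAs the medians were 126 bases (5 names), 68 (26 names) and 65 (37 names), and among box H/ACA snoRNAs 129 (9 names), 118 (19 names) and 113 (8 names). Read totals of members of different length are therefore not a ranking of their levels, and the part that size selection has in this was not tested. The 57 names without a read were 38 Snord, 8 Snora, 5 Scarna, 5 Snhg names including Gas5, and 1 Rnu.

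Newly made RNA was read from the T-to-C reads. Over all members they came to 11, 2 and 107. At the 2-cell stage 6.70% of the members' reads were T-to-C reads (3.82 to 10.8, exact interval), against 4.54% of the whole column, which lies inside that interval. Box H/ACA snoRNAs had 71 T-to-C reads, 12.7% of theirs (6.30 to 22.04), above the column's share. Snora47 gave 34 of the 71, and without it the share was 7.84% (2.70 to 17.0). Box C/D snoRNAs had 10 T-to-C reads (2.56%), small Cajal body RNAs 13 (3.23%), spliced hosts 6 (4.05%) and Rnu names 7 (7.07%).

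**Figure D3:**
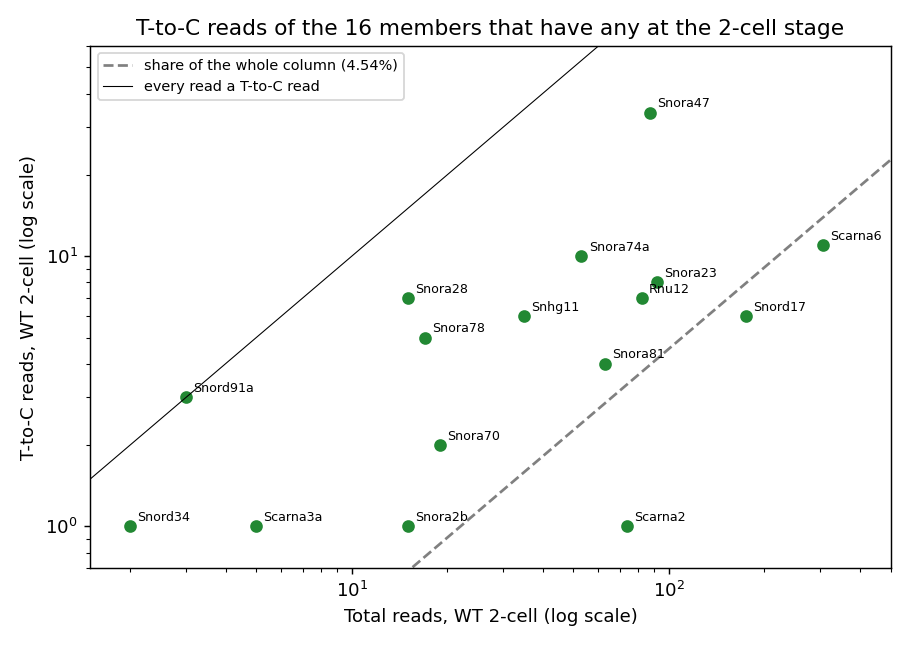
T-to-C reads against total reads at the 2-cell stage for the 16 members with any T-to-C read, both axes logarithmic; the dashed line is the share of the whole column (4.54%) and the solid line is every read a T-to-C read. Snora47 (34 of 87) lies far above the dashed line, and Scarna6 (11 of 307), Snord17 (6 of 175) and Scarna2 (1 of 74) lie below it.

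Snora47 had the most T-to-C reads of any member, 34 of 87 at the 2-cell stage, or 39.1% (13.8 to 69.6), and 0 of 20 in WT zygotes. Scarna6 had 11 of 307 (3.58%, 0.285 to 14.1), with 2 of 21 in WT zygotes and 2 of 10 in null zygotes. Snora74a had 10 of 53 (18.9%, 1.25 to 60.5) and no read in zygotes. Smaller counts at the 2-cell stage were 8 of 92 for Snora23, 7 of 82 for Rnu12, 7 of 15 for Snora28, 6 of 175 for Snord17, 6 of 35 for Snhg11, 5 of 17 for Snora78 and 4 of 63 for Snora81. In WT zygotes 6 members had any T-to-C read, the most being 5 of 7 for Snhg10. Only Scarna6, Snora47 and Snora74a had the 10 T-to-C reads needed for a test, and 0 of 3 passed between the WT columns, with a background of 4.07% higher and 1.55% lower among 4376 names. Counted as 1 molecule per read, Snora47 and Snora74a were called higher, with a background of 30.2%. The T-to-C share itself could be tested for Scarna6, Snora47 and Scarna2 by Fisher's exact test, and 0 of 3 differed, with a background of 1.85% higher and 0.0579% lower among 6909 names.

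The second comparison, Pabpn1l-null against WT zygotes, asked how the members stood in zygotes with that label. Whether maternal mRNA clearance was disturbed in them was not tested here. Only 8 members had a read in the null column: Scarna6 and Snora28 with 10 each, Rnu12 with 8, Snord33 with 7, Snora23, Snhg5 and Snhg10 with 6 each, and Snhg3 with 5. Snord33 was seen in no other column. The WT zygote column had a read for 32 members. Over all names, 9773 had a read in the null column and 14156 in the WT zygote column. The members' sum was 0.750 of the WT zygote sum (0.297 to 1.71), and the class sums in null zygotes held 7 to 17 reads. In the exact binomial test 0 of 22 members were higher and 0 lower, with a background of 0.639% and 0.746%, and 0 had an unadjusted p under 0.05. Counting every read as 1 molecule called 5 of 22, with Rnu12, Snora23 and Snora28 higher and Scarna2 and Snora47 lower, against backgrounds of 9.58% and 14.3%; edgeR called 0. For T-to-C reads 0 of 3 passed, with a background of 0.0457% higher and 0% lower. No member had 20 reads in both zygote columns, so no T-to-C share was tested (background 0% higher and 0.0167% lower among 5999 names), and at this depth a difference in single members was not detectable. Both comparisons share the WT zygote column.

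Host genes were found from RefSeq positions. Of the 113 Snora, Snord and Scarna members with a place, 103 lay inside exactly 1 other gene, 78 of them in protein-coding genes and 25 in long non-coding RNAs. Another 8 lay in 2 or more genes and 2 in none. The table listed the holding gene for 83 of the 103, as 60 distinct genes, of which 21 were ribosomal protein genes. Strand was compared neither for the genes nor for the reads, so a holding gene on the other strand would be counted here as a host. Reads from a small RNA and from the unspliced transcript of its host cannot be told apart. Of the 43 hosts tested between the WT columns, 7 were higher and 3 lower, beside the backgrounds of 16.3% and 16%. In null zygotes 1 host was higher and 1 lower, beside backgrounds of 0.639% and 0.746%.

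**Figure D4:**
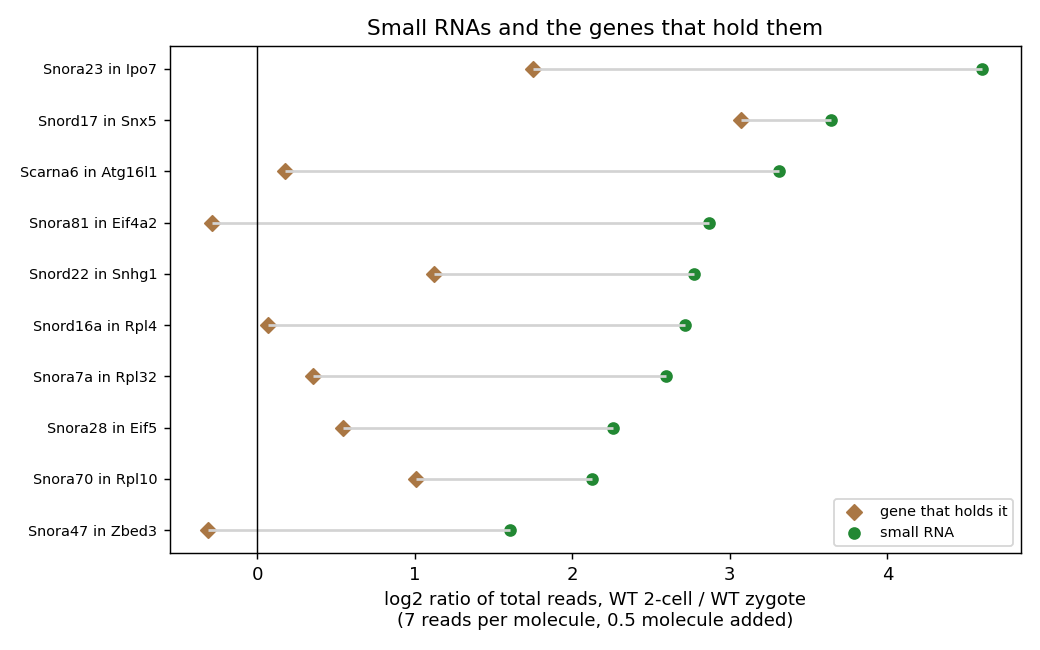
Log2 ratio of total reads, WT 2-cell over WT zygote, with 0.5 molecule added, for 10 of the 11 small RNAs that could be tested together with the gene that holds them. The small RNA stands to the right of its host in 10 of 10; for Snora23, Snord16a, Snora7a and Snora28, at 0 in WT zygotes, the position depends on the added value.

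Small RNAs and their hosts often had unlike values. Atg16l1, an autophagy gene, had 97, 137 and 143 reads and a ratio of 1.13 (0.546 to 2.43), while Scarna6 inside it gave the 11.2 above. Zbed3, a zinc finger gene with high reads in these embryos, had 49780, 27255 and 52240 reads and a ratio of 0.807 (0.781 to 0.833), while Snora47 had 20, 0 and 87. At the 2-cell stage 10.3% of the Zbed3 reads were T-to-C reads against 39.1% of those of Snora47, whose interval begins at 13.8%. Snora47 stood out by its T-to-C reads before it was set beside Zbed3, and the difference was not tested. Eif4a2, a translation initiation factor, had 343, 95 and 365 reads (ratio 0.818, 0.543 to 1.23), beside 4, 0 and 63 for Snora81. Snx5, a sorting nexin gene, had 3, 0 and 62 reads beside 8, 0 and 175 for Snord17, a pattern much like that of its snoRNA, but did not pass the test. Ipo7, an importin, had 7, 0 and 40 reads beside 0, 6 and 92 for Snora23. Apart from Scarna6 and Snora47, these small RNAs reached the minimum only through the 2-cell column, as some of the hosts, Snx5 and Ipo7 among them, did, so the shared direction of the 11 pairs is a description.

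Several hosts had many reads while the small RNA had none. Of the 34 small RNAs with no read whose host was listed, 27 had a host with at least 20 reads. Wdr43, a nucleolar protein of small subunit processing, had 493, 62 and 244 reads and holds Snord53 and Snord92, both at 0. Eif4g1 had 59, 47 and 527 reads and a ratio of 6.87 (3.37 to 16.1), with Snord66 at 0. Rbmx, an RNA-binding protein gene, had 4, 1 and 281 reads, with Snord61 at 0. The opposite was seen in 10 small RNAs with a read at the 2-cell stage whose host had none there. Snora74a had 53 reads and its host Snhg4 had 3, 0 and 0, and Snora52 had 22 while Rplp2 had 0. Rpl13a, with 76, 60 and 143 reads, holds 4 Snord members that summed to 0, 7 and 4. Snhg8 had 50 reads at the 2-cell stage and Snora24 inside it 16, whereas Snhg1 had 16 and Snord22 inside it 32.

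Genes that make, assemble or remove these RNAs were taken from lists of known function, and each count below stands beside the 16.3% higher and 16% lower of all names tested. Several are near those shares. Genes that reached 20 reads only through the 2-cell column (22.1% of all names tested) could hardly be lower there, so their counts are a description. Among box C/D snoRNP proteins and assembly factors 3 of 11 tested rose at the 2-cell stage and 0 fell, with a median log2 ratio of 0.75 against 0.03 over all names. The 3 were among 4 of the 11 that reached the minimum only through the 2-cell column. They were the assembly factors Nufip1 (3, 0 and 134 reads) and Znhit3 (11, 6 and 352) and the cap methylase Tgs1 (0, 0 and 86, interval from 2.20). Among box H/ACA proteins and factors 3 of 8 rose and 1 fell, with a median of 1.03, and 1 of the 8 was tested only through the 2-cell column. The core proteins Nop10 (ratio 4.07, 1.43 to 15.4) and Nhp2 (3.53, 1.25 to 12.8) and coilin, the Cajal body scaffold (Coil; 6.32, 1.98 to 31.1), were higher. Parn, a deadenylase that trims 3′ ends of scaRNAs, was lower (0.246, 0.116 to 0.486). The pseudouridine synthase Dkc1 had 235, 56 and 412 reads and a ratio of 1.35 (0.868 to 2.12), and the methylase Fbl had 6 reads in all.

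For the small nuclear RNAs, 4 of 17 tested genes of snRNA transcription and 3′ end formation rose and 1 fell (median 0.71), with 4 of the 17 tested only through the 2-cell column. Snapc2, of the complex that binds snRNA promoters, had 3, 0 and 496 reads, and the Integrator subunits Ints5 (ratio 6.34, 4.23 to 9.87) and Ints12 (0.133, 0.0533 to 0.290) moved apart. Of the Sm and SMN assembly genes 7 of 16 rose and 2 fell (median 1.43), and 6 of the 16 were tested only through the 2-cell column. Gemin5 (14.5, 3.89 to 111) and Wdr77 (16.7, 4.72 to 117), both of those 6, were higher, and Smn1 (0.203, 0.0640 to 0.531) was lower. Of snRNP-specific proteins 3 of 14 rose and 3 fell (median -0.27), with Snrpc higher and Sart3 lower. Nonsense-mediated decay genes rose in 4 of 9 and fell in 0 (median 0.11), with Smg5 (ratio 4.66, 1.81 to 15.04) among those higher. Exosome and 3′ trimming genes rose in 3 of 18 and fell in 3 (median 0.12), C1d having 3, 0 and 977 reads and Mphosph6 2010, 831 and 930, and 3 of the 18 were tested only through the 2-cell column. A list of 39 tested protein-coding hosts had 3 higher, such as Ncl (ratio 2.10, 1.18 to 3.93), and 6 lower, such as Eif4a1 (0.441, 0.322 to 0.599), with a median of 0.08 and 9 of the 39 tested only through the 2-cell column. In null zygotes all these lists had 0 called, except that among hosts Eef2 and Hspa8 were higher and Wdr43 lower, beside 0.639% higher and 0.746% lower over all names.

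Other structured RNAs that are not snoRNAs were higher at the 2-cell stage in 6 of 7 tested, with a median log2 ratio of 4.32. Of the 7, 3 (Rprl2, Rprl3 and Vaultrc5) were tested only through the 2-cell column, and the last 2 of these are among the 6. Rpph1, the RNA of RNase P, had 533, 234 and 13897 reads. Rmrp, the RNA of RNase MRP, had 36, 0 and 487 reads, and Terc, the telomerase RNA, which carries an H/ACA domain, had 94, 30 and 550 (ratio 4.50, 2.50 to 8.72). Rn45s, the ribosomal RNA precursor on which most snoRNAs act, had 3078, 8884 and 189290 reads. These were 47.3 times higher at the 2-cell stage (43.0 to 52.1) and 6.39 times higher in null than in WT zygotes. Its T-to-C reads were 1097, 1699 and 6036, a smaller rise of 4.23 times at the 2-cell stage (3.56 to 5.05) and 3.43 times in null zygotes. Since ribosomal RNA was depleted before library construction, the part of depletion in the Rn45s values was not tested.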

How the data were processed

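The deposited table held whole read counts that the authors made per gene name from S4U-seq libraries, total reads and T-to-C reads. The submitters' processing notes name the build mm10, and no source used here names the aligner or counter. The table had 30493 lines, 47 of them with a date for a name, which were left out. For a repeated name the line with the most reads was kept (158 member lines became 129 names). Columns were scaled with TMM factors (edgeR 4.0.16 in R 4.3.3). Reads were divided by 7, names with at least 20 total reads (10 T-to-C reads) over the 3 columns were tested with an exact conditional binomial test (scipy 1.17.1), and p-values were adjusted over all names tested. Clopper-Pearson 95% intervals cover counting error only. A call needed an adjusted p under 0.05 and at least a 2-fold ratio; log2 ratios had 0.5 molecule added. T-to-C shares were compared with Fisher's exact test where both columns had 20 reads. Nothing says that the 2 samples of a group came from separate cultures. Every member with at least 20 reads was named, with the 5 next in reads; in each list, up to 4 called genes with the largest change could be named, and other genes named were chosen after their values were seen. The members and lists were chosen with earlier results of these data known. The script was tested on simulated data. Some host and list genes are not reported here.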

Additional observations from a re-analysis of the deposited data

How the results depend on the processing

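The clump size decided most counts. With every read as 1 molecule, calls between the WT columns went from 3633 to 6648 names and from 4 to 20 members (total reads), and from 246 to 2155 names and from 0 to 2 members (T-to-C reads). With clumps in the null column alone these were 6648, 20, 2155 and 2 as well. In null zygotes, calls went from 156 names to 2689 (every read 1 molecule) and 325 (clumps in the null column alone), and members from 0 to 5 and 0. T-to-C calls there went from 2 names to 744, 9 and, with edgeR's exact test, 1. Names with a different T-to-C share went from 132 to 1083 at the 2-cell stage, with 1 member in place of 0, and from 1 to 797 in null zygotes. The edgeR test called 16 members higher at the 2-cell stage, and 937 names and 1 member for T-to-C reads.

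RLE scaling called 7 members, and moved the median log2 ratio of all names from 0.03 to 0.29 and the higher share of their calls from 50.5% to 61.8% (T-to-C: 72.4% to 82.5%). In null zygotes that share was 46.2%, but 57.6% with column totals and 16.3% with edgeR. No member changed direction under any alternative in which it was called. No member was left at 50 T-to-C reads. No paired analysis was possible because the table has 1 column pair per group, and leaving out a replicate could not be run. Depth limits single members: 107 of 129 had fewer than 20 reads.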
